A study of Rattus norvegicus with 17 samples.

Results

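The comparison described here sets rat cortical cultures that carried α-synuclein A53T and received FK506 at 2.0 µM (3 libraries) against cultures that carried the vector and received only the solvent DMSO (3 libraries). It asks which changes made by A53T were back at the level of untreated vector cultures at the saturating dose, which were still there, and which changes were seen only in the treated cultures. The members are these 6 of the 17 libraries in the series, and all 11247 gene labels of the deposited table were tested. A53T cultures in DMSO (2 libraries) defined the A53T changes, and vector cultures at 2.0 µM FK506 (3 libraries) showed the same dose without A53T. The remaining 6 libraries, A53T and vector cultures at 0.2 µM, entered the fit, where the vector libraries add to the estimate of the spread and the A53T libraries, averaged into 1 sample, do not. All cultures came from rat cerebral cortex, were labelled as primary glutamatergic neurons with astrocytes, and were infected with either construct, so both genotypes share the infection.

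α-Synuclein, a protein of presynaptic terminals, forms the aggregates of Parkinson's disease, and A53T is a variant that causes an inherited form of it. Calcineurin is a phosphatase that calcium and calmodulin switch on. It dephosphorylates NFAT transcription factors and the CRTC coactivators of CREB, and so links neuronal activity to transcription. FK506 binds the immunophilin FKBP12, and this complex blocks calcineurin. The rat's own α-synuclein carries threonine at the position of the human A53T change, which limits how far the vector cultures stand for an unmutated protein. No promoter is given for the construct in the labels.

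The deposited values are normalized counts per gene, and the raw depth is unknown. Normalized totals ran from 16390322 to 18335540 in the 6 libraries. Differences are given as log2(value + 1) with the standard error from limma, and "called" means a Benjamini-Hochberg adjusted p under 0.05 over all genes. A log2 difference on this scale understates the change of genes with low values. Replicate 1 of A53T at 2.0 µM stood apart: its median absolute log2 distance from the other libraries of its group was 0.261, against 0.135 and 0.184 for replicates 2 and 3. Counts are therefore also given without it. The second library of A53T in DMSO has a column number that no sample title carries, and it is called the unnumbered library here. No source states that replicate libraries were grown as separate cultures, so p-values measure the spread between libraries, and that spread may be technical. In bulk samples, fewer cells of a type and less RNA per cell cannot be told apart.

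Treated A53T cultures differed from untreated vector cultures in 5627 genes (50.0% of those tested), of which 2894 (25.7%) were higher and 2733 (24.3%) were lower. The median log2 difference over all genes was 0.009. Without replicate 1 of A53T at 2.0 µM 5342 genes were called. The values of both groups did not overlap in 6351 genes (56.5%). By list, genes of p53 signalling, of endoplasmic reticulum folding and of the integrated stress response mostly rose, and genes of reactive astrocytes, complement, neuropeptides and synapses mostly fell, as counted below.

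The largest named rise that held without any 1 library was Cdkn1a, which encodes the cell cycle inhibitor p21, a classic p53 target. Cdkn1a had 3757, 2826 and 3806 normalized counts in A53T at 2.0 µM, 858 and 926 in A53T in DMSO and 420.4, 374 and 416 in vector in DMSO. The 3 treated libraries lay above both other groups, and the difference from vector was 3.09 ± 0.13 (limma adjusted p = 8.23e-09), or 8.5-fold. Vector cultures at the same dose had 9105, 11118 and 8096, all above the treated A53T libraries. Gtse1, a p53-regulated gene of the cell cycle, had 290.3, 246 and 343 in A53T at 2.0 µM, 93.6 and 102 in A53T in DMSO and 44.3, 31.6 and 48.9 in vector in DMSO. Its treated libraries did not overlap with either group, and the difference from vector was 2.80 ± 0.17 (limma adjusted p = 1.19e-07). The other large rises were Clic3 (2.93), a chloride intracellular channel family member, St8sia2 (2.66), a polysialyltransferase, Chrne (2.54), an acetylcholine receptor subunit, Cryab (2.31), a small heat shock protein, and Masp2 (2.26), a protease of the lectin complement pathway. Ttr, which encodes transthyretin, had the largest log2 difference, 3.15 (limma adjusted p = 0.0449). Its values were 73.7, 17 and 68.5 in A53T at 2.0 µM, 116 and 2.21 in A53T in DMSO and 4.55, 4.1 and 3.69 in vector in DMSO, so the untreated A53T libraries stood far apart from each other. The call for Ttr was lost without replicate 1 or 3 of A53T at 2.0 µM or any 1 vector library, with adjusted p from 0.0889 to 0.107.

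The largest falls were in genes of several kinds. Acan, which encodes the perineuronal net proteoglycan aggrecan, had 13.2, 22 and 18.1 normalized counts in A53T at 2.0 µM, 109 and 145 in A53T in DMSO and 313, 293 and 248 in vector in DMSO. Every treated library lay below every library of both other groups (-3.95 ± 0.21, limma adjusted p = 3.73e-08). Vip, the neuropeptide VIP, had 10.6, 5 and 6.44 in A53T at 2.0 µM, 21.8 and 26.6 in A53T in DMSO and 99.9, 104 and 118 in vector in DMSO, again with no overlap (-3.75 ± 0.24, limma adjusted p = 1.59e-07). Pstpip1, a cytoskeletal adaptor (-4.48), Cfb, complement factor B (-3.86), Nptx2, a secreted pentraxin that clusters AMPA receptors (-3.75), Ramp1, a subunit of the CGRP receptor (-3.36), Slc14a1, a urea transporter (-3.33), and Thbs4, a matrix thrombospondin (-3.30), completed this group. Slc14a1 and Thbs4 had log2 differences of 0.38 and 0.01 in A53T in DMSO against vector in DMSO.

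**Figure D1:**
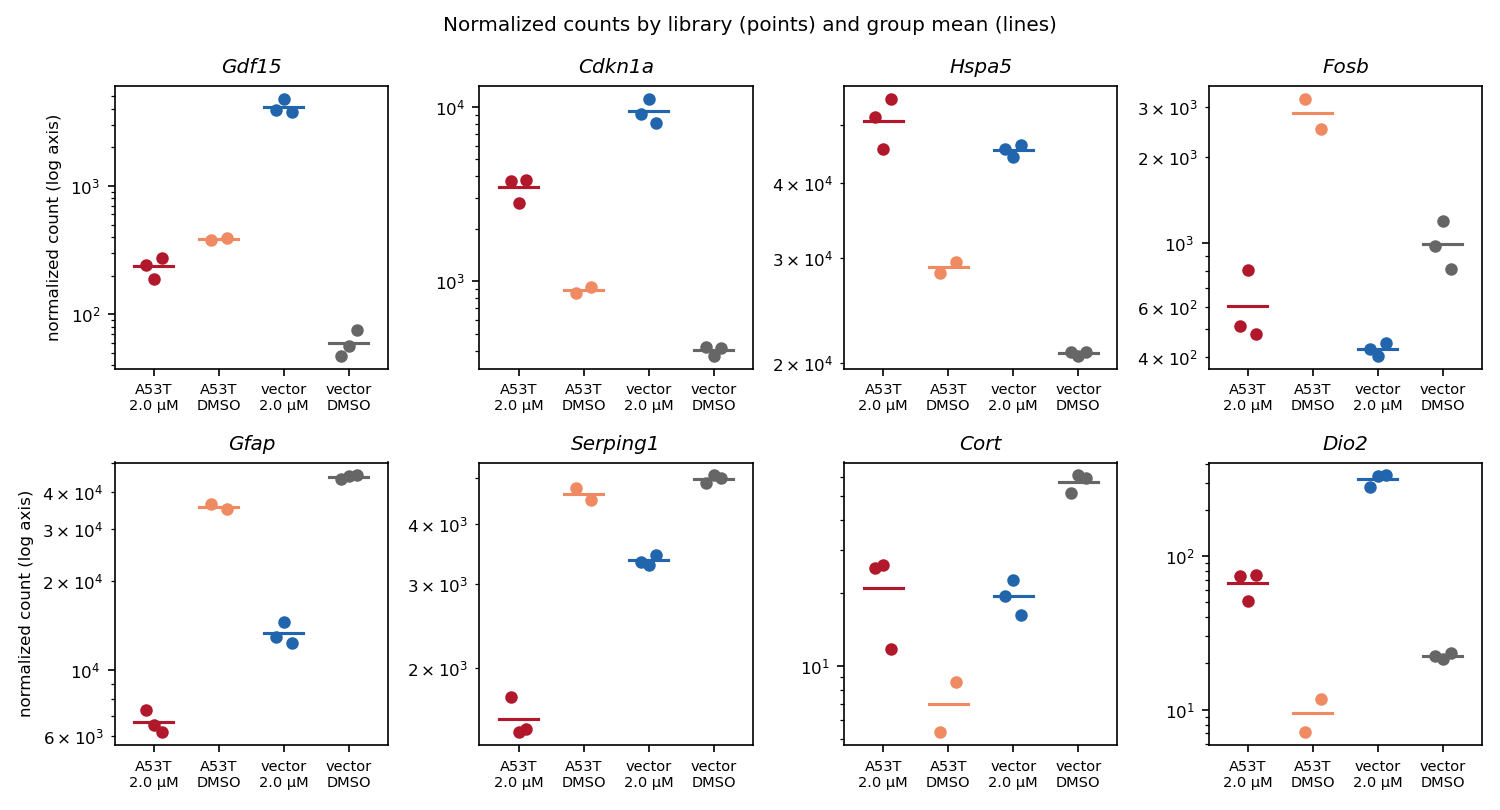
Normalized counts (log axis) of 8 genes, 1 point per library with a line at the group mean, for A53T at 2.0 µM FK506, A53T in DMSO, vector at 2.0 µM and vector in DMSO. Gdf15, Cdkn1a and Hspa5 lie above vector in DMSO in all treated A53T libraries, Gfap, Serping1 and Cort lie below it, and Fosb and Dio2 lie on the other side of it from A53T in DMSO.

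Of 18 measured genes of the calcineurin pathway and the FK506 targets, 2 rose and 10 fell in treated A53T against untreated vector, beside 25.7% and 24.3% of all genes, with a median of -0.25. Nfatc2, an NFAT factor, had 11.9, 26 and 20.2 in A53T at 2.0 µM, 109 and 92.5 in A53T in DMSO and 143, 120.3 and 109 in vector in DMSO. The treated libraries lay below both untreated groups (-2.67 ± 0.29, limma adjusted p = 9.76e-06). Nfatc3, another NFAT factor, moved up instead, by 0.99 ± 0.11. The catalytic subunits Ppp3ca and Ppp3cb fell by 0.87 and 0.84 on the log2 scale, and the regulatory subunit Ppp3r1 fell by 0.33. Ppp3cb had 941, 1817 and 1860.4 in A53T at 2.0 µM, against 2905, 2543 and 2482 in vector in DMSO; the groups did not overlap, and the replicate that stood apart was the lowest. Rcan2, a regulator that binds calcineurin, fell by 0.57, and A53T in DMSO lay at -0.42 from vector. FK506 at 2.0 µM against DMSO changed Rcan2 by -0.15 in A53T and by -0.85 in vector cultures. Rcan1, whose transcription NFAT can drive, fell by 0.26. Fkbp1a, which encodes FKBP12, was not called (-0.08, limma adjusted p = 0.466), with 95% limits of -0.28 and 0.11.

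In DMSO, A53T differed from vector in 1579 genes (14.0% of those tested), with 658 (5.85%) higher and 921 (8.19%) lower. Each of these was sorted by its state at 2.0 µM. A change was counted as returned where FK506 moved it back in A53T by a called difference and the 95% interval of treated A53T minus vector lay within 0.5 log2 of 0. It was counted as past the vector level where treated A53T was called on the other side of vector, and as remaining where it was called on the same side. By these rules 162 changes (10.3%) returned, 32 (2.03%) went past the vector level and 1273 (80.6%) remained, while 136 (8.61%) could not be placed. The classes overlap in 24 genes with small differences: 11 returned genes also remained and 13 were also past. Of the 1273 that remained, FK506 made 553 larger and 23 smaller by a called difference, and its effect was not called in 697. Their median absolute log2 difference from vector was 0.677 at 2.0 µM and 0.446 in DMSO. In vector cultures FK506 at this dose was called in the direction of the treated A53T difference in 1122 of the 1273 (88.1%). That comparison called 47.2% of all genes in either direction. A53T against vector at 2.0 µM was called in 466 of the 1273 (36.6%, beside 19.6% of all genes), 338 in that direction. Remaining thus names a position against untreated vector, and the part of FK506 itself in it was not tested. FK506 against DMSO in A53T was called in 37.6% of all genes (19.7% higher, 17.9% lower) and in 777 of the 1579, of which 224 moved back and 553 moved further from vector. The comparisons behind the classes share libraries: A53T in DMSO stands in 2 of them, and vector in DMSO in 2, so the class counts are a description.

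These counts depended on the few untreated libraries. Without replicate 1 of A53T in DMSO 413 A53T changes were called, of which 20 returned, 3 went past and 384 remained. Without the other A53T library in DMSO the counts were 565, 32, 4 and 514. Leaving out a vector library in DMSO gave 958 to 1047 A53T changes, 60 to 84 returned, 12 to 15 past and 835 to 887 remaining. Without the A53T library at 2.0 µM that stood apart there were 2279 A53T changes, 170 returned, 53 past and 1778 remaining. Without replicate 2 of A53T at 2.0 µM there were 1486 A53T changes, 128 returned, 31 past and 1160 remaining, and without replicate 3 these counts were 1673, 203, 31 and 1243. The share that remained lay between 74.3% and 93% in all of these settings, and the share that returned between 4.84% and 12.1%.

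**Figure D2:**
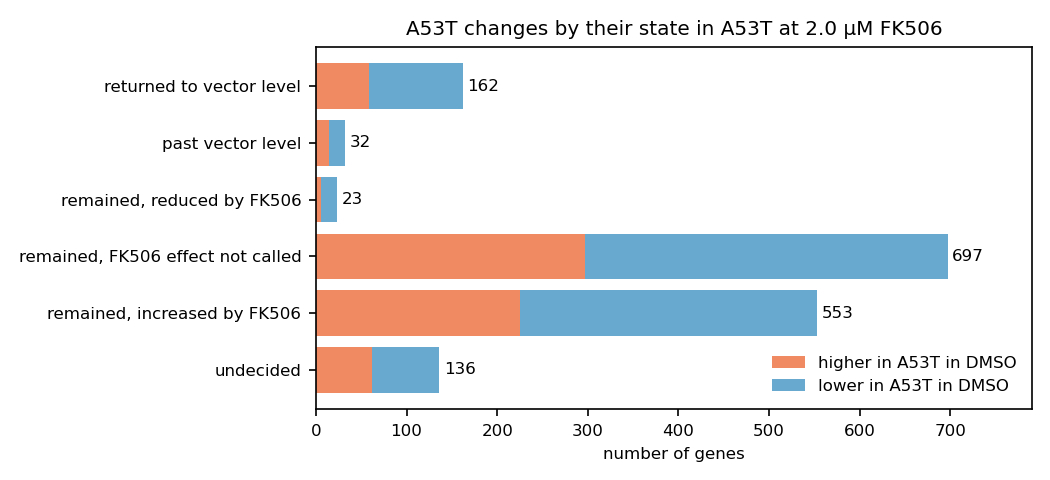
Number of genes (horizontal axis) in each class of the 1579 A53T changes at 2.0 µM FK506, split by whether A53T in DMSO was higher or lower than vector in DMSO. The bars for changes that remained hold 23, 697 and 553 genes, against 162 that returned; 24 genes stand in 2 classes.

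Among the changes that returned, 59 had been higher in A53T and 103 lower. Fos, an immediate early gene and AP-1 subunit, had 1334, 1815 and 1566 normalized counts in A53T at 2.0 µM, 3270.4 and 2898 in A53T in DMSO and 1723, 1828 and 1441 in vector in DMSO. The treated libraries overlapped with vector and lay below both untreated A53T libraries; their difference from vector was -0.09 ± 0.16 and that from A53T in DMSO -0.98 ± 0.17. Fosl1, another AP-1 subunit, had 116, 116 and 126 in A53T at 2.0 µM, 208 and 241 in A53T in DMSO and 128, 139.7 and 138 in vector in DMSO. In vector cultures at 2.0 µM the same gene had 496, 475 and 523, so the dose went with a lower value in A53T and a higher one in vector, with a difference of -2.78 ± 0.19 between the 2 effects (limma adjusted p = 3.61e-06). The other named A53T rises that returned were Clvs2, a clavesin of endosomal traffic in neurons, Rai14, an actin-associated ankyrin repeat protein, and Sertad4, with A53T differences of 0.93, 0.79 and 0.72 and treated differences of 0.08, 0.09 and 0.02.

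Plekhb1 had the largest A53T fall among the named returned genes, with 290.4, 266 and 289 in A53T at 2.0 µM, 133 and 106 in A53T in DMSO and 250.4, 259 and 306 in vector in DMSO. Mfge8, a secreted bridge between dying cells and phagocytes, had 3986, 3196 and 3212 in A53T at 2.0 µM, 1983 and 1909 in A53T in DMSO and 3501, 3494 and 3921 in vector in DMSO. In both genes the untreated A53T libraries were the low ones, and treated A53T overlapped with vector. FK506 changed them by -0.04 and -0.06 in vector cultures, and by 1.24 and 0.82 in A53T cultures. Acta1, Sat2 and Phospho1 had A53T differences of -0.80, -0.79 and -0.75 and treated differences of -0.05, -0.06 and -0.12; they encode a skeletal muscle actin, an acetyltransferase of the polyamine enzyme family and a phosphatase of phosphocholine. The A53T call was lost without replicate 1 of A53T in DMSO for Acta1, Clvs2, Fos, Sat2 and Sertad4 (adjusted p 0.0562 to 0.114). It was lost without the other A53T library for Acta1, Clvs2, Fosl1, Sat2 and Sertad4 (0.0731 to 0.162), and without 1 of the vector libraries for Acta1, Sat2 or Sertad4 (0.0545 to 0.069). The opposite FK506 call was lost without an A53T library in DMSO for Acta1, Clvs2, Sat2 or Sertad4 (0.0654 to 0.0993).

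**Figure D3:**
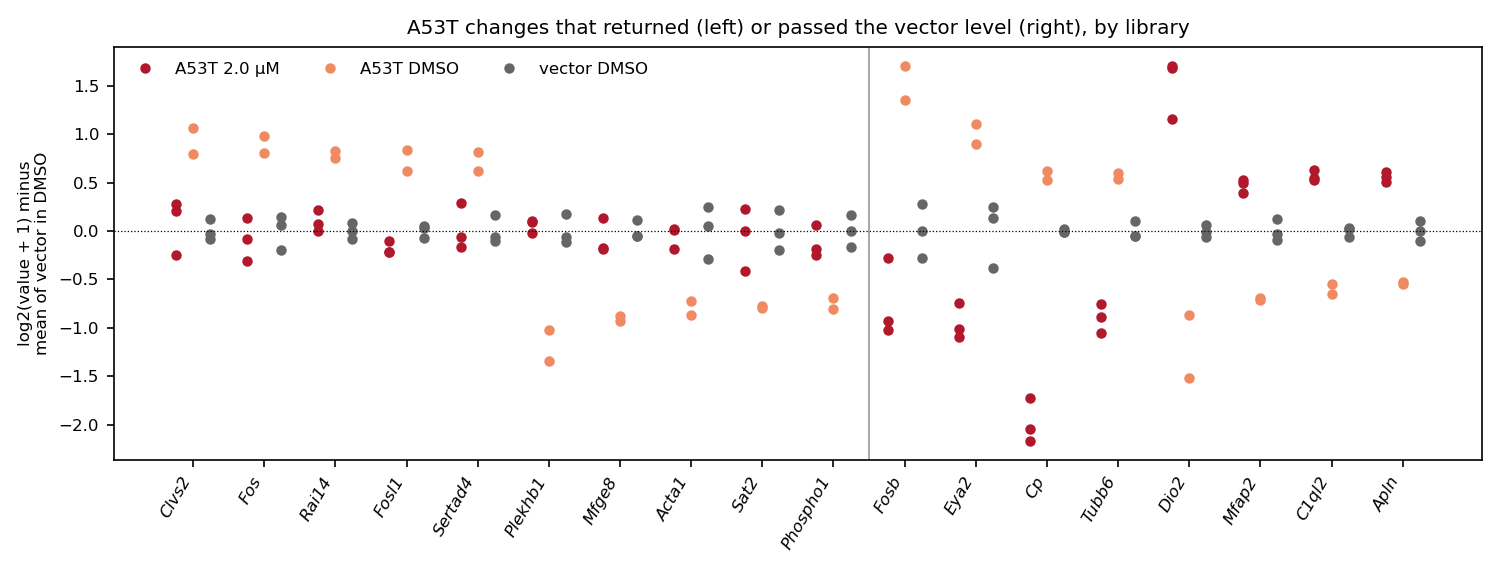
Vertical axis, log2(value + 1) minus the mean of vector in DMSO, 1 point per library, for 10 A53T changes that returned and 8 that went past the vector level. Treated A53T libraries cluster around 0 at the left, while at the right they lie on the other side of 0 from A53T in DMSO.

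The 32 changes past the vector level held 15 that A53T had raised and 17 that it had lowered. Fosb, an AP-1 subunit, had 514, 808 and 482 normalized counts in A53T at 2.0 µM, 3196 and 2509 in A53T in DMSO and 982, 1192 and 811 in vector in DMSO. Its treated libraries lay below every vector library, and one of them came within a few counts of the lowest (-0.75 ± 0.22, limma adjusted p = 0.0148); this call was lost without replicate 3 of A53T at 2.0 µM (adjusted p = 0.0558) or replicate 2 of vector in DMSO (0.0667). Cp, the ferroxidase ceruloplasmin, had 362, 395 and 493 in A53T at 2.0 µM, 2498 and 2348 in A53T in DMSO and 1658, 1619.6 and 1616 in vector in DMSO, so the 3 groups did not overlap (-1.98 ± 0.11, limma adjusted p = 6.49e-08). Eya2, a transcriptional coactivator of development, and Tubb6, a β-tubulin, were also above vector in A53T in DMSO (1.0 and 0.57) and below it at 2.0 µM (-0.95 and -0.90). Tubb6 moved the other way in vector cultures at this dose, by 0.60. Fmod, the matrix proteoglycan fibromodulin, had 136, 136 and 157 in A53T at 2.0 µM, 1171 and 1028 in A53T in DMSO and 767, 731 and 754 in vector in DMSO.

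Dio2, which converts thyroxine to active thyroid hormone, had 74.1, 51 and 75.2 in A53T at 2.0 µM, 7.14 and 11.8 in A53T in DMSO and 22.2, 21.4 and 23.4 in vector in DMSO. Treated A53T lay above both untreated groups (1.52 ± 0.20 against vector, limma adjusted p = 4.16e-05), while vector cultures at 2.0 µM reached 283, 334 and 336. Apln, the peptide hormone apelin, had 252, 261 and 271 in A53T at 2.0 µM, 123 and 121 in A53T in DMSO and 178, 191 and 165 in vector in DMSO. FK506 went with more Apln in A53T (1.09) and less in vector (-1.29), a difference of 2.39 ± 0.17 (limma adjusted p = 6.73e-06). Mfap2, a microfibril protein, and C1ql2, a synaptic C1q-like protein, lay 0.47 and 0.57 from vector at 2.0 µM and -0.70 and -0.60 in DMSO. Fmod, named as a fibroblast marker, lost its A53T call without replicate 1 of A53T in DMSO (adjusted p 0.152). For the other 8 genes named in this class, the A53T call was lost in 7 without replicate 1 of A53T in DMSO (all but Fosb, adjusted p 0.0675 to 0.147). It was lost in 6 of the 8 without the other A53T library (all but Fosb and Dio2, 0.0526 to 0.23), and for Apln, C1ql2, Eya2 or Tubb6 without 1 of the vector libraries (0.0542 to 0.126).

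Among the 1273 changes that remained, 528 were higher and 745 lower than vector. Gdf15, a secreted stress hormone of the TGF-β family, had the largest A53T rise: 244, 189 and 275 normalized counts in A53T at 2.0 µM, 380.2 and 394 in A53T in DMSO and 47.6, 57.1 and 75.6 in vector in DMSO. Treated A53T stayed above vector by 1.96 ± 0.17 (limma adjusted p = 1.86e-06) and lay below untreated A53T by a called -0.73. That second call was lost without replicate 1 of A53T in DMSO (adjusted p = 0.0624) or without the unnumbered library of that group (0.0846). Vector cultures at 2.0 µM had 3927, 4761 and 3743, so the log2 difference between FK506 and DMSO was -0.73 in A53T and 6.10 in vector; the difference between both effects was -6.83 ± 0.26 (limma adjusted p = 3.01e-08). Hrk, a BH3-only protein of neuronal apoptosis, had 3073, 3065 and 3154 in A53T at 2.0 µM, 2370.4 and 2209 in A53T in DMSO and 905, 911 and 896 in vector in DMSO. Its treated libraries lay above both other groups (1.78 ± 0.053, limma adjusted p = 7.15e-10). St8sia2 had 40.9, 30 and 64.5 in A53T at 2.0 µM, 29 and 28.8 in A53T in DMSO and 5.67, 5.13 and 7.19 in vector in DMSO, and both A53T groups lay above vector.

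Low-abundance genes followed. Dab2, an endocytic adaptor, and Dcaf17 had treated differences of 1.53 and 1.53 and A53T differences of 1.66 and 1.69. Their A53T calls were lost without either A53T library in DMSO (adjusted p 0.0921 to 0.245), and each also without 1 vector library (Dcaf17 0.052, Dab2 0.0692). Cort, the neuropeptide cortistatin, had 25.4, 26 and 11.7 in A53T at 2.0 µM, 5.34 and 8.58 in A53T in DMSO and 51.5, 61.1 and 59.6 in vector in DMSO. It lay between the untreated groups: below vector by a called -1.48, and above A53T in DMSO by 1.42 (limma adjusted p = 0.0107), a call lost without replicate 1 of A53T in DMSO (adjusted p 0.106). Arhgap25, a GTPase-activating protein for Rac, showed the same order, with 29.4, 28 and 19.1 in A53T at 2.0 µM, 8.97 and 7.54 in A53T in DMSO and 41.9, 48.9 and 69.2 in vector in DMSO. Crhbp, which binds corticotropin-releasing hormone, had 48.8, 45 and 41.4 in A53T at 2.0 µM, 88.2 and 63.9 in A53T in DMSO and 409.6, 412 and 432 in vector in DMSO, and Trim54 differed from vector by -3.17 at 2.0 µM and -2.51 in DMSO. In these 2 genes both A53T groups were far below vector.

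Gene groups were then compared. Where no other comparison is named, a count below is of members called in treated A53T against untreated vector, to be read beside the 50.0% of all genes called and the median of 0.009. Counts for A53T in DMSO against vector in DMSO are to be read beside the 5.85% of all genes higher and 8.19% lower in that comparison. The lists overlap in places, and members of a list are not independent.

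Of 22 measured genes of p53 signalling and apoptosis, 14 rose and 2 fell, with a median of 0.74. A53T had already raised 9 of them in DMSO, and all 9 remained. Besides Cdkn1a and Hrk, Ccng1, the p53 target cyclin G1, had 5979, 6277 and 6698 normalized counts in A53T at 2.0 µM, 3533 and 3508 in A53T in DMSO and 2362, 2287 and 2435 in vector in DMSO, and the 3 groups did not overlap. In vector cultures at 2.0 µM, 16 of the 22 were above vector in DMSO and 2 below, with a median of 0.97. That comparison called 23.4% of all genes higher and 23.8% lower. At 2.0 µM, A53T against vector called 5 higher and 8 lower (median -0.18), beside 9.88% and 9.70% of all genes. Of 14 proliferation genes 5 rose and 1 fell. Among those that rose were Mcm6 (0.90) and Mcm7 (0.61), subunits of the replicative helicase, and Pcna (0.50), the sliding clamp of DNA polymerases.

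Of 23 measured chaperones and folding factors of the unfolded protein response, 17 rose and 0 fell, with a median of 0.54. These genes serve folding in the endoplasmic reticulum. Hspa5, which encodes its main chaperone BiP, had 51597, 45588 and 55360.1 in A53T at 2.0 µM, 28283 and 29523 in A53T in DMSO and 20828, 20554 and 20812 in vector in DMSO. The groups did not overlap, and untreated A53T lay between the others (1.29 ± 0.074 at 2.0 µM, 0.48 ± 0.082 in DMSO). Herpud1, a component of degradation at the endoplasmic reticulum, had 5072, 4857 and 5261 in A53T at 2.0 µM, 2689.7 and 2751 in A53T in DMSO and 2228, 2170.0 and 2329 in vector in DMSO (1.17 ± 0.058, limma adjusted p = 2.7e-08). Hsp90b1, the chaperone GRP94, rose by 0.67 ± 0.051. Herpud1 and Hsp90b1 were also above vector cultures at the same dose, by 0.51 and 0.35, and Hspa5 differed by 0.16 (limma adjusted p = 0.141). All 7 members that A53T had raised in DMSO remained, and FK506 made 6 of them larger. Without the library that stood apart 18 of the 23 rose. In vector cultures FK506 at 2.0 µM raised 16 of the 23 and lowered 0 (median 0.46), beside 23.4% and 23.8% of all genes.

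Promoter sequences of these genes are shown because their members moved together. They come from RefSeq (GRCr8) and run from 250 bases before the start site to 50 after it, so their coordinates belong to a later build than the counts. The endoplasmic reticulum stress element, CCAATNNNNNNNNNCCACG, on either strand, was found in 8 of the 19 list members with a promoter in the table. Over all 33469 promoters 0.0657% hold it, and 0.189% of the 9014 promoters of measured genes. Capitals mark the element. Hspa5 lies at chr3:38452766-38453065 (plus strand), Hsp90b1 with a pair of matches at chr7:23012244-23012543 (minus strand), Creld2 at chr7:121789134-121789433 (plus strand), and Xbp1 at chr14:84604373-84604672 (plus strand).
Hspa5: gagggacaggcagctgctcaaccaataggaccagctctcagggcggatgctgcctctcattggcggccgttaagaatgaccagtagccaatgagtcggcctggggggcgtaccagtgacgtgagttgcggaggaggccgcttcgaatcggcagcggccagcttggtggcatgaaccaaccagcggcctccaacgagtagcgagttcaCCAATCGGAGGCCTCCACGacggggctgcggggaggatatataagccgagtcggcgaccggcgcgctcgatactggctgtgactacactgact
Hsp90b1: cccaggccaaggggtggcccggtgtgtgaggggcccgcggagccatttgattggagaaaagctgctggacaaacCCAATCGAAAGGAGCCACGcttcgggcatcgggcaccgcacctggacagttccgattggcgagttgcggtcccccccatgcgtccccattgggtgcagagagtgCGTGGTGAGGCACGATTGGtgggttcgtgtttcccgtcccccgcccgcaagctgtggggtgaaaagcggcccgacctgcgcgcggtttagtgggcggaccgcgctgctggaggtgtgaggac
Creld2: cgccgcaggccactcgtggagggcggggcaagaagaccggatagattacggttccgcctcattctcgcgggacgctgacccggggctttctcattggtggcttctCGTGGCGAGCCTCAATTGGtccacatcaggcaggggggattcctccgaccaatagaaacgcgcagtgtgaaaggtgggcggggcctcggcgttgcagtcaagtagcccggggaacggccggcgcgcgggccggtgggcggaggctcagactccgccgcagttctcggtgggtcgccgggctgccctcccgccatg
Xbp1: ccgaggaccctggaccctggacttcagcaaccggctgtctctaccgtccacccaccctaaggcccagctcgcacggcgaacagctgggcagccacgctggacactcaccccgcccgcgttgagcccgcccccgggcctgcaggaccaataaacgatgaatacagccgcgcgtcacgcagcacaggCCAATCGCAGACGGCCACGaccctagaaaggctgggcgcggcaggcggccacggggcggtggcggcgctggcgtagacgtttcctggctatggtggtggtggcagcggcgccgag
Creld2, an endoplasmic reticulum protein that was chosen for its match, had 814, 659 and 668 normalized counts in A53T at 2.0 µM, 452 and 451 in A53T in DMSO and 387, 464 and 468 in vector in DMSO, so the treated libraries lay above both untreated groups (0.70 ± 0.12, limma adjusted p = 0.000506). Xbp1, a transcription factor of the same response chosen likewise, had 3571, 3434 and 3422 in A53T at 2.0 µM, 3270.3 and 3183 in A53T in DMSO and 3431, 3417 and 3299.8 in vector in DMSO, with overlap (0.04, limma adjusted p = 0.55). A match is a description of the letters and was not tested as a binding site.

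The integrated stress response slows translation and raises the factors ATF4, ATF3 and their targets. Of 24 measured members 17 rose and 2 fell, with a median of 0.51. Atf3 had 2922, 2566 and 2913 in A53T at 2.0 µM, 1291 and 1352 in A53T in DMSO and 613, 659 and 642 in vector in DMSO, with no overlap between groups (2.13 ± 0.11, limma adjusted p = 2.93e-08). Ppp1r15a, the GADD34 phosphatase subunit that restores translation, rose by 1.32 ± 0.082, and Slc7a3, a cationic amino acid transporter, by 0.85 ± 0.064. FK506 at 2.0 µM raised Slc7a3 by 0.54 in A53T cultures and by 0.17 in vector cultures. Atf3 and Ppp1r15a rose less in A53T cultures (1.08 and 0.87) than in vector cultures (2.3 and 1.42). Of the 24 members, FK506 in vector cultures raised 15 and lowered 5 (median 0.41), beside 23.4% and 23.8% of all genes. At 2.0 µM, A53T against vector called 10 higher and 1 lower (median 0.27), beside 9.88% and 9.70% of all genes. Cytosolic aminoacyl-tRNA synthetases, which charge tRNAs, rose in 14 of 20 measured members and fell in 0, with a median of 0.32. A53T in DMSO had raised 0 and lowered 2. FK506 at 2.0 µM in vector cultures raised 11 of the 20 and lowered 3 (median 0.19), beside 23.4% and 23.8% of all genes. At that dose, A53T against vector called 5 higher and 0 lower (median 0.08), beside 9.88% and 9.70% of all genes. Farsb, the only synthetase that met the naming rule, lay at the edge. It had 1675, 1809 and 1643 in A53T at 2.0 µM against 1526, 1551 and 1523 in vector in DMSO (0.16 ± 0.056, limma adjusted p = 0.0348). This call was lost without replicate 2 of A53T at 2.0 µM (adjusted p = 0.13) or any 1 vector library in DMSO (0.0634 to 0.0871).

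Heat shock proteins, which refold cytosolic proteins, rose in 8 of 17 and fell in 4, with a median of 0.13. FK506 at 2.0 µM in vector cultures raised 9 of the 17 and lowered 1 (median 0.23), beside 23.4% and 23.8% of all genes. At that dose, A53T against vector called 0 higher and 9 lower (median -0.36), beside 9.88% and 9.70% of all genes. Hspa1b, an inducible HSP70, had 2442, 2551 and 2786 in A53T at 2.0 µM, 2591 and 2741 in A53T in DMSO and 1281, 1282 and 1361 in vector in DMSO. Both A53T groups lay at about the same level above vector, and FK506 changed it by -0.04 in A53T and 1.79 in vector. FK506 raised Cryab by 1.73 in A53T and by 2.67 in vector. Hspb8, a small heat shock protein, fell by 1.08 on the log2 scale. Of 17 targets of Nrf2, the regulator of oxidative stress genes, 7 rose and 2 fell, with a median of 0.18. Osgin1 (1.73), Hmox1 (1.13), which degrades haem, and Srxn1 (0.84), which repairs peroxiredoxins, were among those that rose, and A53T in DMSO lay above vector in each.

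**Figure D4:**
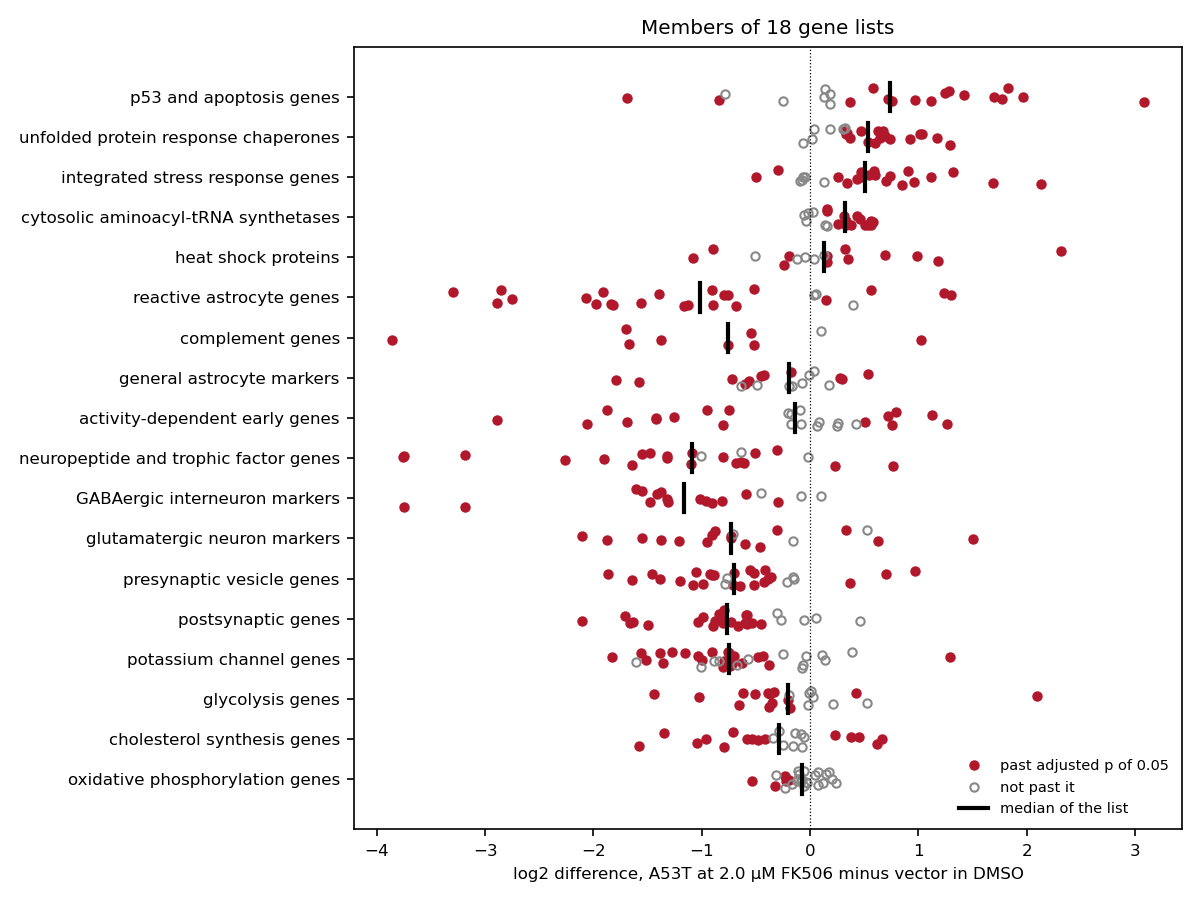
Log2 difference of A53T at 2.0 µM FK506 minus vector in DMSO (horizontal axis) for each measured member of 18 gene lists, filled where called and open where not, with a bar at the list median. Medians of the stress lists and tRNA synthetases lie to the right of 0, and those of the reactive astrocyte, complement, neuropeptide, GABAergic and synaptic lists to the left. Heat shock proteins straddle 0, with 8 members called higher, 4 called lower and a median of 0.125. A jitter separates points vertically.

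Astrocyte genes split by kind. Of 26 measured genes of reactive astrocytes 19 fell and 4 rose, with a median of -1.01. Gfap, the astrocyte intermediate filament, had 7320.2, 6555 and 6176 normalized counts in A53T at 2.0 µM, 36398 and 34947 in A53T in DMSO and 44127, 45115 and 45477 in vector in DMSO. Treated A53T was far below both untreated groups (-2.75 ± 0.082, limma adjusted p = 7.15e-10), or 0.148 times the vector level, while A53T in DMSO lay only -0.33 from vector. Vector cultures at 2.0 µM had 12955, 14585 and 12389, and treated A53T was below these too (-0.99 ± 0.082, limma adjusted p = 1.05e-05). Thbs4 had 8.06, 11 and 11.7 in A53T at 2.0 µM, 123 and 97.7 in A53T in DMSO and 100.2, 118 and 109 in vector in DMSO. Vector cultures at 2.0 µM had 26.3, 35.1 and 29.4, also below both untreated groups. In DMSO, A53T had raised 3 and lowered 1 of the 26, beside 5.85% and 8.19% of all genes. FK506 against DMSO in A53T lowered 17 and raised 2, beside 17.9% and 19.7% of all genes. The same dose in vector cultures lowered 9 and raised 4 (median -0.22), beside 23.8% and 23.4% of all genes. At 2.0 µM, A53T against vector called 14 lower and 0 higher (median -0.78), beside 9.70% and 9.88% of all genes. The summed level of the list was 20209 to 22397 in A53T at 2.0 µM, 68690 to 71995 in A53T in DMSO and 70735 to 74169 in vector in DMSO.

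General astrocyte markers, which are not tied to reactivity, fell in 8 of 19 and rose in 3, with a median of -0.19. Aqp4, the water channel of astrocyte endfeet, had 1085, 1682 and 1758 in A53T at 2.0 µM, 3456 and 3329.7 in A53T in DMSO and 4605, 4593 and 4087 in vector in DMSO, with the replicate that stood apart lowest (-1.58 ± 0.16). Gpc4, a secreted glypican that promotes synapses, fell by 1.80 and Mlc1, an astrocyte membrane protein, by 0.56. Their summed level was 85093 to 86557 in A53T at 2.0 µM and 90305 to 93154 in A53T in DMSO, against 103160.2 to 103658 in vector in DMSO. In vector cultures at 2.0 µM it was 61319 to 64583, and 10 of the 19 were higher and 2 lower in A53T than in vector at that dose, a comparison that called 9.88% of all genes higher and 9.70% lower.

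Complement genes fell in 7 of 9 and rose in 1, with a median of -0.76. Serping1, the C1 inhibitor, had 1732, 1464 and 1489 in A53T at 2.0 µM, 4765 and 4489.9 in A53T in DMSO and 4874, 5058 and 4985 in vector in DMSO. The untreated groups were close and the treated one low (-1.67 ± 0.084, limma adjusted p = 2.9e-08). C2, which forms the classical C3 convertase, had 62.8, 69 and 70 in A53T at 2.0 µM, 228 and 189 in A53T in DMSO and 226, 215 and 220.0 in vector in DMSO. Cfb of the alternative pathway had 5.5, 9.01 and 4.32 in A53T at 2.0 µM, 24.5 and 22.4 in A53T in DMSO and 96.8, 88.6 and 119.9 in vector in DMSO. All 3 were also lower than in vector cultures at the same dose, by 1.11 for Serping1, 0.88 for C2 and 2.74 for Cfb on the log2 scale.

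Activity-dependent early genes are switched on within minutes of calcium entry. A53T in DMSO had raised 10 of the 26 and lowered 0, with a median of 0.49, beside 5.85% and 8.19% of all genes. In treated A53T 6 were above vector and 10 below, with a median of -0.14, and FK506 against DMSO in A53T lowered 16 and raised 3 (17.9% and 19.7% of all genes). Of the 10 that A53T had raised, 3 returned, 1 went past vector, 3 remained and 3 could not be placed. Jun, which remained, had 7674, 7712 and 8157 in A53T at 2.0 µM, 5296 and 5286 in A53T in DMSO and 3251, 3307 and 3230.4 in vector in DMSO, so FK506 carried it further from vector (1.27 ± 0.051). Gadd45b, a stress and activity gene, had 381, 332 and 276 in A53T at 2.0 µM, 1349 and 1222 in A53T in DMSO and 974, 1147 and 1068 in vector in DMSO, below both untreated groups. Homer1, a postsynaptic scaffold with an activity-induced short form, fell by 0.81. The early genes therefore took different positions, from Jun above vector through Fos at vector to Fosb and Gadd45b below it.

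Genes of neuropeptides and trophic factors fell in 18 of 23 and rose in 2, with a median of -1.09. A53T had lowered 12 of these in DMSO, and all 12 remained. FK506 made 8 of them larger falls and 1 smaller. In vector cultures FK506 at 2.0 µM lowered 16 of the 23 and raised 1 (median -0.82), beside 23.8% and 23.4% of all genes. A53T against vector at that dose called 1 higher and 2 lower (median -0.046), beside 9.88% and 9.70% of all genes. Vgf, a secreted precursor induced by neurotrophins, had 8279, 7615 and 6827 in A53T at 2.0 µM, 10454 and 11272 in A53T in DMSO and 22384, 23325 and 25364 in vector in DMSO, with no overlap (-1.65 ± 0.10, limma adjusted p = 1.21e-07). Nptx2 had 134, 172 and 102 in A53T at 2.0 µM, 1070.2 and 1245 in A53T in DMSO and 1831, 1876 and 1719 in vector in DMSO. Scg2, a granin of dense-core vesicles, had 6689, 7875 and 7556 in A53T at 2.0 µM, 7729 and 7863 in A53T in DMSO and 12178, 11468 and 11873 in vector in DMSO, so both A53T groups were low at about the same level. The cyclic AMP response element, TGACGTCA, the site of CREB, whose CRTC partners calcineurin dephosphorylates, was found in 3 of the 16 list members with a promoter (Scg2, Sst and Vgf). It stands in 1.83% of all 33469 promoters and 3.34% of the 9014 of measured genes, and in 5 of 21 early genes. Capitals mark it in Vgf at chr12:25276971-25277270 (minus strand) and Scg2 at chr9:88256817-88257116 (minus strand), shown because both fell and hold it.
Vgf: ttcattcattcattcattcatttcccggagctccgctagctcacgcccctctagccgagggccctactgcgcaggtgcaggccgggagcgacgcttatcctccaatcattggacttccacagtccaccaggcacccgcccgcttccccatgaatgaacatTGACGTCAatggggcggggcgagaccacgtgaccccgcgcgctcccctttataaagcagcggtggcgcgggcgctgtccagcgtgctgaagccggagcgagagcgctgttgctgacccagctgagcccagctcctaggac
Scg2: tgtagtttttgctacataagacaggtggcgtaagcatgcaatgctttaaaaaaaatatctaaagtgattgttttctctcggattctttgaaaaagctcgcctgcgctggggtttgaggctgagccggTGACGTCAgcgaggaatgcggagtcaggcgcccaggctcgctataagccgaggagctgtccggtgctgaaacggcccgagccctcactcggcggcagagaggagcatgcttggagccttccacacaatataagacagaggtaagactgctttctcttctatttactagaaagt
No binding was measured here. The AP-1 letters TGAGTCA were in 0 of the 21 early gene promoters and 4.63% of all promoters; CARE, TGATGCAA, was in 1 of 22 integrated stress response promoters and 0.795% of all; and the antioxidant element, TGACNNNGC, was in 5 of 12 Nrf2 target promoters and 12.1% of all.

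Neuronal identity genes fell to different degrees. Markers of GABAergic interneurons, cells that the labels do not list, fell in 15 of 18 and rose in 0, with a median of -1.16. Slc32a1, the vesicular GABA transporter, had 2132, 2298 and 2026 in A53T at 2.0 µM, 2783 and 2775 in A53T in DMSO and 4211, 4301 and 4493 in vector in DMSO, and vector at 2.0 µM had 2094, 2228 and 2186. Both treated groups were at about the same level (-0.01 between them, limma adjusted p = 0.88). Calb1, the calcium buffer calbindin, fell by 1.61. All 10 of these markers that A53T had lowered in DMSO remained. In vector cultures FK506 at 2.0 µM lowered 15 of the 18 and raised 0 (median -1.09), beside 23.8% and 23.4% of all genes. A53T against vector at that dose called 1 higher and 3 lower (median 0.004), beside 9.88% and 9.70% of all genes. Glutamatergic markers fell in 13 of 19 and rose in 3, with a median of -0.73. Slc17a7, the vesicular glutamate transporter VGLUT1, had 2234, 3484 and 3671 in A53T at 2.0 µM, 6672 and 7154 in A53T in DMSO and 8569, 7514 and 7752 in vector in DMSO, with the replicate that stood apart lowest. Nrgn, a calmodulin-binding postsynaptic protein, fell by 1.55 and Neurod6, a transcription factor of cortical excitatory neurons, by 0.73. Pan-neuronal markers fell in 11 of 19 and rose in 2, with a median of -0.53. Nefh, the heavy neurofilament, fell by 2.01, and Thy1, a surface glycoprotein of neurons, had 3504, 3556 and 3417 in A53T at 2.0 µM, 3686 and 3717 in A53T in DMSO and 6224, 6006 and 6626 in vector in DMSO. The summed level of the pan-neuronal list was 115029 to 136568 in A53T at 2.0 µM, 125434 to 128392 in A53T in DMSO and 141429 to 147951 in vector in DMSO.

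Synaptic genes went mostly down. Of 29 presynaptic vesicle genes 21 fell and 3 rose (median -0.70), and of 26 postsynaptic genes 21 fell and 0 rose (median -0.76). Dlgap3, a scaffold of the postsynaptic density, had 1460.4, 1477 and 1129.8 in A53T at 2.0 µM, 2843 and 2935 in A53T in DMSO and 4248, 4587 and 4344 in vector in DMSO. Its treated libraries were lowest and the untreated A53T libraries lay between (-1.71 ± 0.10). Cacng8, an AMPA receptor auxiliary subunit, fell by 1.63 and Dlgap1 by 0.88. Among vesicle genes Vamp1 fell by 0.88 and Dnm1, the dynamin of vesicle recycling, by 0.71. Syt4, a synaptotagmin of dense-core vesicles, went the other way, with 16902, 17964 and 17400.5 in A53T at 2.0 µM, 13659.8 and 12865 in A53T in DMSO and 8918, 9196 and 8589.9 in vector in DMSO. It was also above vector at the same dose (0.57 ± 0.061, limma adjusted p = 8.17e-05). Of 35 potassium channel genes 21 fell and 1 rose (median -0.75): Kcnc1, a voltage-gated channel, fell by 1.56, and Kcnn3, a calcium-activated channel, rose by 1.29 ± 0.076. A53T had changed 9 of the presynaptic, 5 of the postsynaptic and 9 of the channel genes in DMSO, and in each list all of them remained. Of the presynaptic genes 1 also met the rule for returned. In vector cultures FK506 at 2.0 µM lowered 15, 13 and 21 members of these lists (23.8% of all genes). It raised 2, 0 and 1 (23.4%), with medians of -0.43, -0.55 and -0.75. A53T against vector at that dose called 2, 0 and 3 higher and 4, 6 and 3 lower, beside 9.88% and 9.70% of all genes.

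Metabolic genes gave smaller differences. Of 21 glycolysis genes 12 fell and 2 rose, with a median of -0.20, and 10 of the 12 that A53T had lowered remained. In vector cultures FK506 at 2.0 µM lowered 14 of the 21 and raised 3 (median -0.50), beside 23.8% and 23.4% of all genes. Hk1, the first enzyme of glycolysis in neurons, had 7254, 7234 and 7347 in A53T at 2.0 µM, 9194 and 9190.4 in A53T in DMSO and 11293, 11059 and 11199.7 in vector in DMSO, and each group was tight and separate (-0.62 ± 0.041, limma adjusted p = 1.66e-07). Pfkp, a phosphofructokinase, fell by 0.65 and Ldha, lactate dehydrogenase A, by 1.02 on the log2 scale. Cholesterol synthesis genes fell in 10 of 23 and rose in 5, with a median of -0.28. Nsdhl fell by 0.80, while Dhcr7, which makes the last step, rose by 0.62 ± 0.066. Of the 8 genes of this pathway that A53T had lowered, 2 returned, 5 remained and 1 could not be placed. Oxidative phosphorylation genes were called in 5 of 26, all lower, which is 19.2% beside 50.0% of all genes. FK506 at 2.0 µM in vector cultures lowered 15 of the 26 and raised 0 (median -0.33), beside 23.8% and 23.4% of all genes. A53T in DMSO had lowered 5 and raised 0 (median -0.265). At 2.0 µM, A53T against vector called 3 higher and 0 lower (median 0.277), beside 9.88% and 9.70% of all genes. Ndufs1, a subunit of complex I, fell by 0.54, and Uqcrc2, of complex III, by 0.33. Cycs, cytochrome c, fell by 0.24, and its call was lost without replicate 3 of A53T at 2.0 µM (adjusted p = 0.0766) or replicate 2 (0.0809) or 3 (0.0655) of vector in DMSO. The count of 5 for treated A53T was 3 without replicate 3 of A53T at 2.0 µM. It was also 3 without replicate 2 or replicate 3 of vector in DMSO, and 7 without replicate 1 of A53T at 2.0 µM. Sample quality weights gave 14 lower, and quantile scaling 7 lower and 1 higher.

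Markers of other cell types and of the libraries are given beside these results, and their part in the differences above was not tested. Of 12 microglia markers 2 were measured, and both rose. Cd68, a lysosomal protein that is not restricted to microglia, had 754, 646 and 696 in A53T at 2.0 µM, 307 and 299 in A53T in DMSO and 171, 151 and 191 in vector in DMSO. Oligodendrocyte lineage markers rose in 3 of 9 and fell in 1, a share near that of all genes, with a median of 0.024. Olig2, a factor of that lineage, had 676, 678 and 794 in A53T at 2.0 µM, 382 and 353 in A53T in DMSO and 431, 419 and 401 in vector in DMSO, and vector at 2.0 µM had 335, 300.0 and 326. Treated A53T alone was high. Cspg4, a marker of precursors, fell by 0.78. Fibroblast and meningeal markers fell in 7 of 11 and rose in 0, and Dcn, the proteoglycan decorin, fell by 1.76. Endothelial markers had 2 of 10 measured; Eng, a TGF-β co-receptor, rose by 1.26 ± 0.36.

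Cytosolic ribosomal protein genes rose in 20 of 23 and fell in 0, with a median of 0.58, and A53T in DMSO changed 0 of them (median 0.07). Rpl4 had 45791, 32877 and 33821 in A53T at 2.0 µM, 25862 and 24660.5 in A53T in DMSO and 20009, 21446 and 22892 in vector in DMSO. The treated libraries lay above the others, with the replicate that stood apart highest. Rplp0 (0.82 ± 0.15) and Rpl10 (0.66 ± 0.12) had the same order. The list's summed level was 431908 to 636843 in A53T at 2.0 µM and 338972 to 359449 in A53T in DMSO, against 301862 to 342671 in vector in DMSO. Without the replicate that stood apart 14 of the 23 were called, and without replicate 1 of vector in DMSO 13. FK506 at 2.0 µM in vector cultures raised 8 of the 23 and lowered 0 (median 0.32), beside 23.4% and 23.8% of all genes. The summed level in those treated vector cultures was 364522 to 477383. At that dose, A53T against vector called 1 higher and 0 lower (median 0.295), beside 9.88% and 9.70% of all genes. Housekeeping genes, chosen as a check of scale, rose in 3 of 12 and fell in 4, with a median of -0.10: Actb, β-actin, fell by 0.57, while Gusb and B2m rose by 0.74 ± 0.11 and 0.54 ± 0.082. The share of RNA taken by ribosomal protein genes thus differed between groups, and its part in the other differences was not tested.

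Changes not called in untreated A53T were then counted. Of the 5627 genes called, 4322 were not called in A53T in DMSO, 2349 of them higher and 1973 lower than vector. Since a missed call does not show that A53T had no effect, a stricter count kept the 2635 genes whose 95% interval of the A53T effect lay within 0.5 log2 of 0, of which 1680 were higher and 955 lower. Among the largest strict rises, Shq1, an assembly factor of small nucleolar ribonucleoproteins, had 167, 176 and 200.0 in A53T at 2.0 µM, 69.1 and 64.9 in A53T in DMSO and 69.6, 62.2 and 62.8 in vector in DMSO. Ephx1, microsomal epoxide hydrolase, had 2589.8, 2090.0 and 2593 in A53T at 2.0 µM, 909 and 1017 in A53T in DMSO and 894, 889.8 and 973 in vector in DMSO. In both, the untreated groups overlapped and the treated libraries lay well above them. Mettl18, a histidine methyltransferase (1.30), Ifi30, a lysosomal thiol reductase (1.26), Phlda3, a p53 target that restrains Akt (1.25), and Rdh12, a retinol dehydrogenase (1.23), followed.

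Among the largest strict falls, Rgs2, a regulator of G protein signalling, had 489.7, 719 and 527 in A53T at 2.0 µM, 2127 and 2137 in A53T in DMSO and 2507, 2696 and 2215 in vector in DMSO. Ehd2, a caveolar ATPase, had 25.9, 37 and 39.3 in A53T at 2.0 µM, 125 and 131 in A53T in DMSO and 132, 135 and 139 in vector in DMSO. In both the treated libraries were the low ones. Col5a3, a fibrillar collagen chain (-1.37), and Klf2, a transcription factor of quiescence (-1.42), followed, beside C2 and Serping1 above.

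Vector cultures at 2.0 µM show which of these differences A53T carried at the same dose. FK506 against DMSO in vector was called in 5307 genes (47.2% of those tested, either direction). This comparison shares the vector cultures in DMSO with the main one, so values are given side by side. It was called in the direction of the treated A53T difference in 2725 of the 4322 new changes (63%). Among the 2635 strict ones it was so called in 1780 (67.6%). Shq1, Ephx1 and Col5a3 differed from vector in DMSO by 1.46, 1.39 and -1.37 in A53T at 2.0 µM, and by 1.30, 1.49 and -1.63 in vector at 2.0 µM. Ehd2, Serping1 and Thbs4 differed by -1.98, -1.67 and -3.30 in treated A53T, and by -0.48, -0.57 and -1.82 in treated vector. A53T against vector at 2.0 µM was called in 2202 genes (19.6%), and in 982 of the 4322 new changes, a share of 22.7% near that background; both counts share the treated A53T libraries. Ehd2 was lower in A53T than in vector at that dose by 1.5, Thbs4 by 1.48 and Serping1 by 1.11 on the log2 scale, and Olig2 was higher by 1.16 ± 0.084. For Shq1 and Ephx1 the difference at that dose was 0.16 ± 0.12 and -0.10 ± 0.092, and neither was called.

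MicroRNA gene labels were looked at after their values had been seen, since the naming rule leaves them out. The libraries were made from mRNA, so these values come from precursor or host transcripts and not from mature microRNAs. Of 26 measured labels 3 were higher (Mir21, Mir3064 and Mir3561) and 3 lower (Mir132, Mir212 and Mir22) in treated A53T, against 50.0% of all genes called; in A53T in DMSO limma called 0, with 2 at an unadjusted p under 0.05. Mir132 and Mir212 are neighbours whose transcription CREB can drive in neurons. Mir132 had 10.4, 9.01 and 6.42 normalized counts in A53T at 2.0 µM, 52.3 and 47.6 in A53T in DMSO and 31.8, 37.7 and 25.3 in vector in DMSO. Mir212 had 5.34, 5.0 and 2.18 in A53T at 2.0 µM, 39.6 and 29.6 in A53T in DMSO and 26.2, 27.5 and 20.6 in vector in DMSO. Both were low in all treated libraries, by -1.77 ± 0.60 (limma adjusted p = 0.0261) and -2.37 ± 0.32 (limma adjusted p = 6.66e-05) against vector. Mir21 had 37.5, 28 and 32.7 in A53T at 2.0 µM, 14.5 and 12.8 in A53T in DMSO and 13.3, 10.2 and 11.7 in vector in DMSO (1.40 ± 0.23). Mature sequences from RefSeq (GRCr8) are shown because the pair that fell shares a seed, bases 2 to 8, marked in capitals.
rno-miR-132-3p: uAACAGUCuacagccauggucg
rno-miR-212-3p: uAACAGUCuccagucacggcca
rno-miR-21-5p: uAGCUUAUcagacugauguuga
The first 2 carry the seed AACAGUC and miR-21-5p another. In the order printed, the mature sequences lie at chr10:60522091-60522112 (plus strand), chr10:60521811-60521832 (plus strand) and chr10:71902653-71902674 (minus strand) of GRCr8.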

How the data were processed

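A stranded mRNA kit was used, per the labels' protocols. The submitters' processing notes name FastQC, TopHat, HTSeq and rn6; versions and the normalization method are not given in the sources used here. Deposited by the authors were gene counts after normalization, a signal without a raw unit. Single steps (tolerance 0.1) were clear in only some libraries, so no count test was run and no counting interval is given. Of 11247 labels, 10458 were current symbols in RefSeq's GRCr8 table, 11093 with synonyms, and 23 looked like dates and were never named. The lowest gene mean was 3.65.

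Log2(value + 1) was fitted with limma 3.58.1 (R 4.3.3, trend=TRUE) after a minimum mean of 1, which removed no gene. Replicates of A53T at 0.2 µM were within 0.995 to 1.05 times the sampling noise of each other (other pairs 1.48 to 14.5). They therefore entered as their mean, counted once, giving 15 samples and 9 residual degrees of freedom, and that sample is taken to vary like those of other groups. P-values were adjusted by Benjamini-Hochberg over all genes. The fit was also run on simulated data with independent noise and a narrower rule for returned changes. That run therefore does not bear on the class counts given here. Members and lists were chosen with earlier results of these data known. Named genes needed a current symbol, a mean of 20 or more and groups that did not overlap. They were the 8 largest rises and falls, 5 and 5 returned, 4 and 4 each past vector and remaining (by A53T effect), 6 and 6 strict new, up to 3 of each list by p, and 9 study genes. Some genes that this rule picked are not reported here. MicroRNAs and genes shown for a promoter were added after their values were seen. Alternatives changed the pseudocount, filter, scaling, samples, weights, block, threshold and margin.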

Additional observations from a re-analysis of the deposited data

Results flagged for a closer look

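For 58 named genes the effect of 2.0 µM FK506 against DMSO differed between A53T and vector cultures (interaction term in limma, adjusted p under 0.05), beside 14.6% of all genes. The naming rule picked 127 genes, many of them by differences in the libraries that also enter this term. The share of named genes therefore cannot be read as an excess over all genes. Values in parentheses are the log2 difference of both effects, A53T minus vector. FK506 at 2.0 µM raised the value in both cultures, less so in A53T, for Cdkn1a (-2.59), Gtse1 (-2.09), St8sia2 (-1.85), Chrne (-1.42), Masp2 (-1.41), Atf3 (-1.22), Dio2 (-1.06), Osgin1 (-1.01), Cryab (-0.94), Jun (-0.76), Cd68 (-0.72), Srxn1 (-0.63), Hrk (-0.62), Ppp1r15a (-0.55) and Ccng1 (-0.28). It raised the value more in A53T than in vector for C1ql2 (0.97), Mfap2 (0.71) and Slc7a3 (0.37). The value was lower with FK506 in A53T and higher in vector for Gdf15 (-6.83), Fosl1 (-2.78), Tubb6 (-2.07), Hspa1b (-1.83), Clvs2 (-1.33) and Rai14 (-1.02). The value was higher with FK506 in A53T and lower in vector for Cort (2.94), Apln (2.39), Arhgap25 (2.01), Olig2 (1.34), Plekhb1 (1.28), Sat2 (0.94), Mfge8 (0.89), Phospho1 (0.87) and Cycs (0.48). It was lower in both cultures, with the larger fall in A53T, for Fmod (-2.49), Thbs4 (-1.49), Ehd2 (-1.41), Gadd45b (-1.21), Cp (-1.06), Serping1 (-1.0), Fos (-0.85), C2 (-0.80) and Gfap (-0.66). It was lower in both cultures, with the smaller fall in A53T, for Trim54 (2.72), Crhbp (2.72), Pstpip1 (1.41), Scg2 (0.74), Rcan2 (0.70), Nefh (0.69), Slc32a1 (0.63), Dlgap1 (0.58), Vgf (0.50), Gpc4 (0.49), Thy1 (0.48), Ldha (0.48), Pfkp (0.47), Calb1 (0.38), Uqcrc2 (0.38) and Hk1 (0.20). These directions are those of the 2 estimates and were not each called. The interaction rests on both libraries of A53T in DMSO: 649 genes were called without replicate 1 of that group and 632 without the other, against 1641 with both.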

How the results depend on the processing

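Counts of treated A53T against untreated vector, of FK506 against DMSO in vector, and of new changes stayed within 1.5 times their main value in all alternatives tried, with ranges of 4615 to 5615, 4526 to 5939 and 3511 to 4983 when 1 library was left out. The other counts moved, and the cause was not tested beyond the fewer libraries or stricter limits of the setting itself. Leaving out 1 library gave 413 to 2279 A53T changes, 1837 to 4881 FK506 effects in A53T, 1480 to 2960 differences from vector at 2.0 µM, 632 to 2612 interactions, and 20 to 203 returned, 3 to 53 past and 384 to 1778 remaining changes. In these settings A53T in DMSO can be left with 1 library, which is assumed to vary like the other groups. A fit of only the groups concerned called 4174 A53T changes, 1786 FK506 effects in A53T and 688 differences at 2.0 µM, each fitted on its own groups; in the joint fit of the 3 groups behind the classes, 94 of 1117 A53T changes returned. Sample quality weights gave 4700, 5954 at 2.0 µM and 5837 interactions, with 897 returned, 259 past and 3019 remaining. With all 17 libraries separate 271 returned and 61 went past. At a threshold of 0.01 there were 660 A53T changes, 2156 FK506 effects in A53T, 891 differences at 2.0 µM and 549 interactions, with 31 returned, 3 past and 580 remaining; a margin of 0.25 left 60 returned. The alternatives for the counts at 2.0 µM, in vector, of the interaction, of list members and of named genes outside the main comparison were added after the data were seen.

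Correlations of deviations between same-numbered libraries ran from -0.51 to 0.669, so some deviated together and others apart. Differently numbered libraries were not compared, so this check does not settle whether the numbers mark pairs. The main fit did not take them as pairs. A replicate block by title numbers left 331 A53T changes, 1588 FK506 effects in A53T and 387 interactions, with 19 returned, 4 past and 304 remaining; a block by column numbers left 100 returned and 21 past. Of the named genes 0 reversed a called direction. In the main comparison Ttr, Fosb, Farsb, Cycs or Eng lost their call in some setting, and Fkbp1a gained one with quantile scaling or weights. Raw depth is unknown and limits what low values can show.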
